A study of Rattus norvegicus with 11 samples.

Results

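Pecam1, Cdh5, Kdr, Flt1, Tek, Tie1, Emcn, Vwf, Plvap and Edn1 were followed across the 4 groups of the study, asking whether Edn1, the gene of endothelin 1, moved with the 9 genes that mark blood vessels. The members were taken by gene symbol from the count and FPKM tables. All 10 were found among the 23781 genes listed, and all 10 were among the 18049 genes that passed a filter on low counts. Blood vessels are lined by endothelial cells, which are joined by cell-cell adhesion proteins and grow in response to Vegf and angiopoietin ligands. Endothelin 1 is a peptide that vessel-lining cells make and release, and it acts on neighbouring mural cells through 2 receptors to narrow the vessel. Its gene is known to respond to hypoxia, flow and inflammatory signals, and cells other than endothelium can make it.

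The tissue came from calvarial suture-bony composite defects in Sprague Dawley rats, given as 4 months old in the labels, and was taken from the cranium 6 weeks after surgery. PLA (2 libraries) was an electrospun polylactic acid membrane, CTS (3 libraries) a chitosan scaffold, GelMA (3 libraries) a gelatin methacryloyl hydrogel, and NC (3 libraries) was the same defect without any scaffold. All 4 groups shared the surgery, the collagenase digestion and the sort for Cd45- cells, and no group was unoperated. Cells were fixed and permeabilised before the Cd45 stain, only male rats were described, and no source says that each library was a separate animal, so p-values measure the spread between these libraries, which may be technical. Total counts ran between 22509898 and 31290849 per library. Ptprc, which encodes Cd45, was at 336 to 1460 CPM (read counts relative to library size, scaled by TMM, which offsets differences in composition), so the libraries held leukocyte RNA. NC replicate 2 stood apart, with 16.9% of its counts in collagen genes and the lowest Ptprc level. In such bulk samples, fewer vessel cells and less RNA per vessel cell cannot be told apart.

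Upstream sequences were looked up in RefSeq (build GRCr8, while the counts were made on mRatBN7.2), where 6 of the 10 members had an entry. The 250 bases before the annotated start are printed for Edn1, which carried the largest change among the members, for Flt1, the vessel gene most like it over all libraries, and for Hilpda, the gene with the most similar profile of all. Capitals mark ACGTG (the core of the hypoxia response element), TGACTNA (a motif like that of AP-1), GATAA (the GATA core) and CCGGAA (an ETS core) on either strand, motifs picked after the sequences had been read. The Edn1 window lies at chr17:22666688-22666937 on the minus strand, that of Flt1 at chr12:12333180-12333429 and that of Hilpda at chr4:58836213-58836462, both on the plus strand.
Edn1: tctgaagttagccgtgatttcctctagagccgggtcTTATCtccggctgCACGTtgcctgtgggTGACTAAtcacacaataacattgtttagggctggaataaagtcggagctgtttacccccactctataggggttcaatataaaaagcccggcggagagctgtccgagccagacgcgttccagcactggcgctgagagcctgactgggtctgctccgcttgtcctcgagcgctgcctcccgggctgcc
Flt1: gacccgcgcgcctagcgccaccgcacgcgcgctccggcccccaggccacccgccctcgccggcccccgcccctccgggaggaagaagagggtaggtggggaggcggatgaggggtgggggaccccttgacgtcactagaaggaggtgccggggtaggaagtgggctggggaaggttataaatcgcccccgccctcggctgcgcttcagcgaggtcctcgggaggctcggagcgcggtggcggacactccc
Hilpda: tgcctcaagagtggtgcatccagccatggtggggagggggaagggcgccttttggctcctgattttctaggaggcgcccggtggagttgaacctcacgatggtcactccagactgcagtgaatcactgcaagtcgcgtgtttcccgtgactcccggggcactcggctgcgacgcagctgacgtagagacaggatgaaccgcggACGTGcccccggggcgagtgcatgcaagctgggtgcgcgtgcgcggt
Edn1 held the hypoxia, AP-1 and GATA motifs 1 time each, Hilpda held the hypoxia motif 1 time, and no capitals fell in Flt1. None of the marked motifs overlapped. Among 33469 windows of this length in the same table, 16.6% held the hypoxia motif, 11.5% the AP-1 motif, 23.5% the GATA motif and 12.6% the ETS motif. Of the other members with an entry, Kdr held the ETS motif, Emcn held that of GATA, Plvap held the AP-1 and GATA motifs, and Tie1 held none of the 4. These are matches of letters only, and binding was not measured.

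Edn1 was called higher in PLA than in each of the other 3 groups, by the test described with its fold changes, and it was the only member called in all 3 comparisons. Its reads numbered 1446 and 1401 in the PLA libraries, 104, 90 and 176 in CTS, 138, 230 and 241 in GelMA, and 56, 199 and 207 in NC. In CPM, Edn1 stood at 59.9 and 60.2 in PLA, 3.07, 2.84 and 5.77 in CTS, 4.15, 6.98 and 7.04 in GelMA, and 2.38, 8.99 and 7.92 in NC. Both PLA libraries thus lay far above the other 9, whose ranges overlapped between CTS, GelMA and NC. The group means were 60.1 ± 0.188 CPM in PLA (SD, n = 2), 3.90 ± 1.63 in CTS, 6.05 ± 1.65 in GelMA and 6.43 ± 3.55 in NC (SD, n = 3 each). The order of the means was therefore PLA, NC, GelMA and CTS, and the libraries of the lower 3 groups overlapped.

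Fold changes were tested in a quasi-likelihood model of edgeR on all 11 libraries, with Benjamini-Hochberg adjustment over all genes, and a gene was called at an adjusted p under 0.05 with a log2 fold change beyond 1 in size. By that test Edn1 rose in PLA by 3.22 ± 0.512 (log2 fold change ± SE) against NC (adjusted p = 0.00250), by 3.31 ± 0.512 against GelMA (adjusted p = 0.00394) and by 3.95 ± 0.525 against CTS (adjusted p = 0.00120). Among all genes tested, 8.32% were called higher in PLA with NC as the baseline, 4.61% with GelMA and 6.42% with CTS, so Edn1 belonged to a sizeable set of genes. The call was kept under each of 10 other settings and without each of the 11 libraries in turn, with log2 fold changes of 2.58 to 4.24 over the settings and 2.83 to 4.29 with a library left out. The highest adjusted p over those settings was 0.0492, from edgeR on PLA and NC alone. Without PLA, Edn1 differed by -0.09 between GelMA and NC (edgeR, adjusted p = 0.925), a sign that turned with the scaling of the libraries, by -0.72 between CTS and NC (adjusted p = 0.558) and by -0.64 between CTS and GelMA (adjusted p = 0.544).

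**Figure D1:**
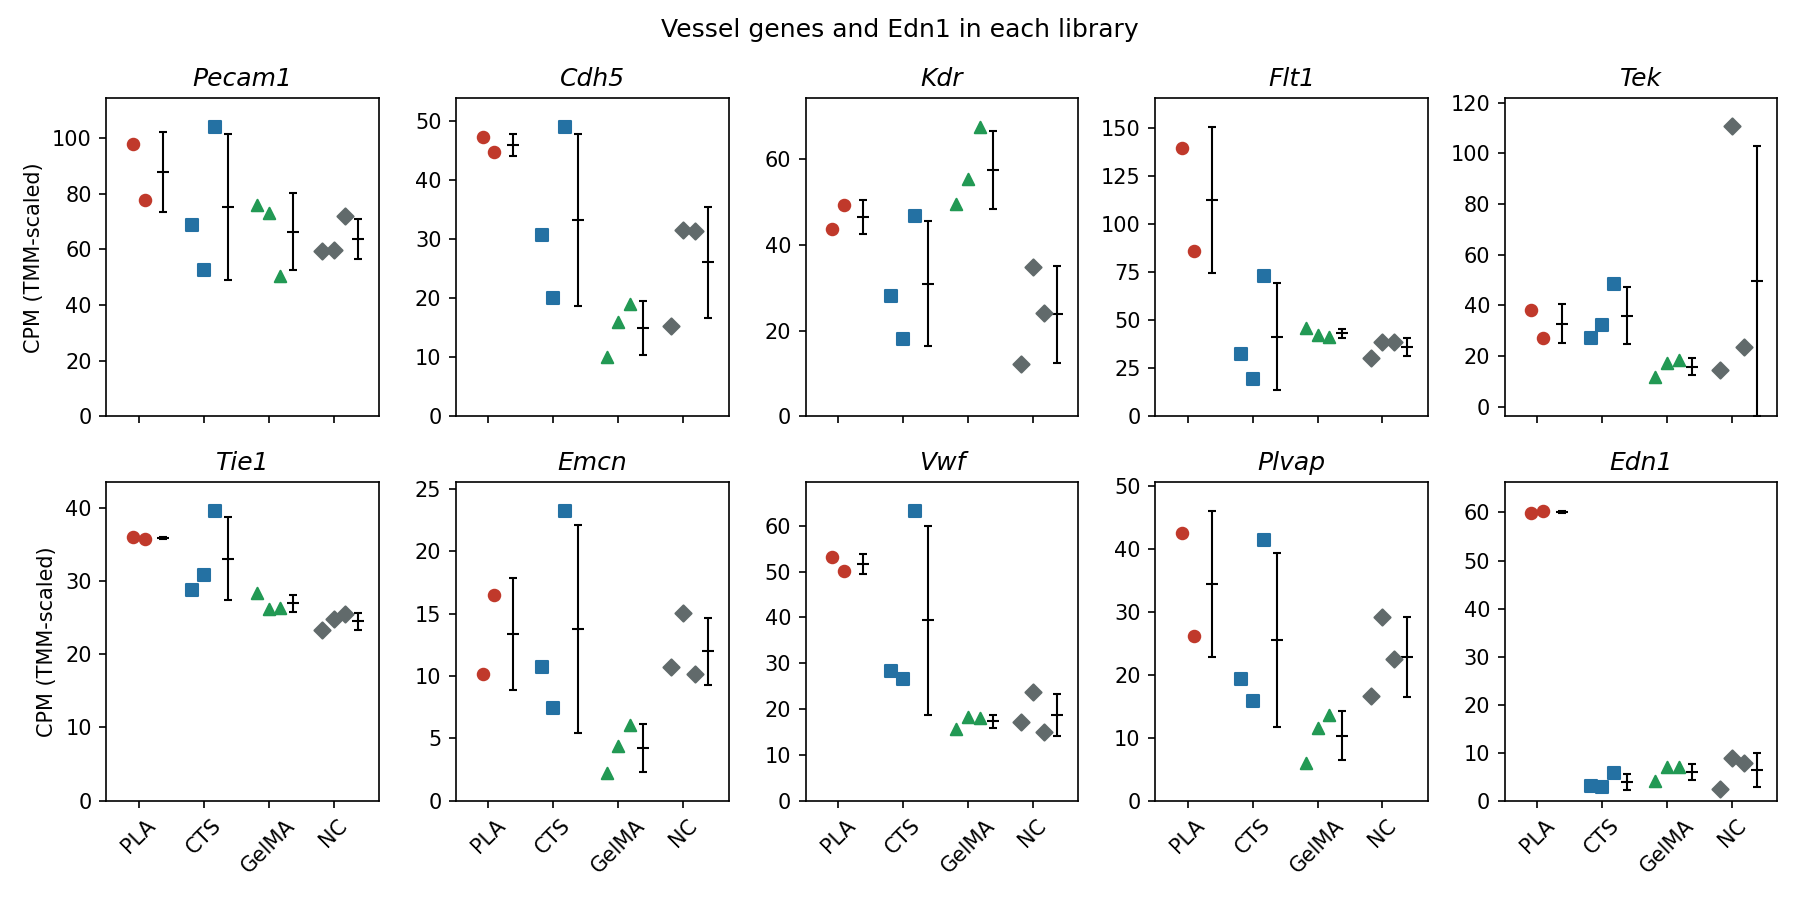
Level of each member in CPM (vertical axis, linear, TMM-scaled) in the libraries of PLA, CTS, GelMA and NC (points), with the group mean and SD as bars beside them. Edn1 was at 59.9 and 60.2 CPM in PLA and at most at 8.99 CPM elsewhere. Of the 9 vessel genes, 8 overlapped between PLA and CTS and 3 between PLA and NC. Both PLA points lay above GelMA for 8 vessel genes and below for 1. Over all genes, the PLA libraries lay above CTS for 26.5% and below for 27.8%. They lay above NC for 21.9% and below for 17.2%, and above GelMA for 27.7% and below for 30.7%.

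The 9 vessel genes did not share a single pattern. Pecam1, an adhesion receptor at endothelial junctions that leukocytes also carry, was at 97.9 and 77.7 CPM in PLA, 68.6, 52.7 and 104 in CTS, 75.8, 72.9 and 50.4 in GelMA, and 59.6, 59.6 and 72.1 in NC. Cdh5, the cadherin of endothelial junctions, was at 47.2 and 44.7 CPM in PLA, 30.7, 20.1 and 49.0 in CTS, 10.1, 15.9 and 19.0 in GelMA, and 15.3, 31.5 and 31.4 in NC. For both genes the PLA libraries thus exceeded all of GelMA and NC and lay within the range of CTS. The margin was small for Pecam1, with 77.7 CPM in PLA against 75.8 in GelMA, and Cdh5 was lowest in GelMA. Emcn, a sialomucin of capillaries and veins, was at 10.2 and 16.5 CPM in PLA, 10.8, 7.40 and 23.2 in CTS, 2.22, 4.37 and 6.10 in GelMA, and 10.7, 15 and 10.2 in NC. Plvap, which forms the diaphragms of fenestrated vessels, was at 42.7 and 26.2 CPM in PLA, 19.4, 15.8 and 41.5 in CTS, 5.98, 11.5 and 13.6 in GelMA, and 16.6, 29.3 and 22.6 in NC. For both genes the GelMA libraries were the lowest 3 of all 11, and PLA, CTS and NC overlapped.

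Among the receptors, Kdr and Flt1 bind Vegf, Kdr passing on most of the growth signal and Flt1 acting in part as a decoy. Kdr was at 43.7 and 49.4 CPM in PLA, 28.2, 18 and 46.8 in CTS, 49.7, 55.5 and 67.6 in GelMA, and 12.3, 34.9 and 24.3 in NC. Flt1 was at 139 and 85.9 CPM in PLA, 32.4, 19.4 and 72.9 in CTS, 46.0, 42.2 and 41.5 in GelMA, and 30.5, 38.9 and 38.7 in NC. Kdr was thus highest in GelMA, the group in which Cdh5, Emcn and Plvap were lowest, and Flt1 was highest in PLA. Tek, the receptor of the angiopoietins, was at 38.3 and 27.2 CPM in PLA, 27.2, 32.1 and 48.5 in CTS, 11.9, 17.2 and 18.4 in GelMA, and 14.6, 111 and 23.5 in NC. Tie1, the partner of Tek without a known ligand of its own at high affinity, was at 35.9 and 35.8 CPM in PLA, 28.8, 30.8 and 39.5 in CTS, 28.3, 26.1 and 26.4 in GelMA, and 23.3, 24.8 and 25.5 in NC. The Tek value of 111 CPM came from NC replicate 2, the library rich in collagen reads, and Tie1 varied least of the 9 genes. Vwf, the clotting factor that endothelial cells and platelets store, was at 53.2 and 50.1 CPM in PLA, 28.3, 26.5 and 63.2 in CTS, 15.6, 18.3 and 18 in GelMA, and 17.1, 23.8 and 15 in NC. Both PLA libraries and all 3 CTS libraries lay above GelMA and NC for Vwf.

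CTS replicate 3 had the highest level of the 11 libraries for Pecam1, Cdh5, Tie1, Emcn and Vwf. The geometric mean of the 9 vessel genes was 45.9 and 40.8 CPM in PLA, 27.6, 21.9 and 50.3 in CTS, 17.2, 21.9 and 23.3 in GelMA, and 19.3, 34.8 and 25.5 in NC. Both PLA libraries were thus above GelMA and NC on this average, and 1 CTS library was above PLA. In the test of any difference among the 4 groups, 2 of the 10 members passed, Edn1 (edgeR, adjusted p = 0.000871) and Vwf (adjusted p = 0.0174), where 18.8% of all genes passed. DESeq2 passed 8 of the 10 in that test, and without NC replicate 2 edgeR passed 4. The share of all genes that passed in these other settings was not counted. The count fell to 1 without either PLA library or without any 1 of the 3 GelMA libraries.

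Against NC, 2 of the 9 vessel genes were called higher in PLA, Flt1 by 1.65 ± 0.436 (edgeR, adjusted p = 0.0298) and Vwf by 1.47 ± 0.349 (adjusted p = 0.0186). The share of all genes called was 8.32% higher and 4.01% lower. The median log2 fold change of the 9 was 0.59, with a range of -0.60 for Tek to 1.65 for Flt1, and the median of all genes was -0.11. The count of 2 became 0 without either PLA library or without NC replicate 3, 1 (Vwf) without NC replicate 1 or any 1 of the GelMA libraries, and 3, with Kdr, without NC replicate 2. Over all genes, 1502 were higher and 724 lower of 18049 with all 11 libraries. Without NC replicate 3 they were 1183 and 534 of 17783, and without NC replicate 2, 2045 and 1356 of 17891. Tek itself changed sign without NC replicate 2, to 0.78. Emcn (0.15) changed sign with library size alone as the scaling, and without PLA replicate 2 or NC replicate 3.

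Against GelMA, 3 vessel genes were called higher in PLA: Cdh5 by 1.61 ± 0.412 (edgeR, adjusted p = 0.0383), Vwf by 1.58 ± 0.348 (adjusted p = 0.0219) and Plvap by 1.73 ± 0.464 (adjusted p = 0.0445). Emcn (1.65, adjusted p = 0.0753) and Flt1 (1.38, adjusted p = 0.0771) were of similar size and missed the threshold, and Kdr was at -0.31 (adjusted p = 0.718). The median of the 9 was 1.38, against -0.04 for all genes, of which 4.61% were called higher and 1.47% lower. The count of 3 became 0 without either PLA library or any of the 3 GelMA libraries, 1 (Vwf) without CTS replicate 1 or NC replicate 3, and 5 without CTS replicate 3 or NC replicate 2. Over all genes, 832 were higher and 266 lower of 18049 with all 11 libraries. Without GelMA replicate 1 they were 414 and 66 of 17907, and without NC replicate 3, 735 and 247 of 17783. Without CTS replicate 3 they were 753 and 255 of 17926, and without NC replicate 2, 1288 and 624 of 17891. DESeq2 called 5 vessel genes, beside 1306 higher and 557 lower of 18049 genes. With edgeR on the 2 groups alone 6 were called, beside 1665 higher and 825 lower of 16560 genes. Pecam1 (0.40) and Tie1 (0.41) changed sign with library size alone as the scaling.

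Against CTS, edgeR called 0 of the 9 vessel genes, 1 (Flt1) had an unadjusted p under 0.05, DESeq2 called 1 (Flt1), and limma on log2 FPKM called 0. Flt1 was at 1.44 ± 0.435 (edgeR, adjusted p = 0.0536), and the other 8 lay between -0.13 and 0.59. The median of the 9 was 0.39 and that of all genes -0.03. Among all genes edgeR called 6.42% higher and 3.53% lower, and 28.8% had an unadjusted p under 0.05. DESeq2 called 1599 higher and 1070 lower of 18049 genes. Flt1 was called without CTS replicate 3, NC replicate 1 or NC replicate 2. Of 17854 to 17926 genes tested, those fits called 976 higher and 655 lower, 1419 and 847, and 1588 and 1111, in that order. Edn1 had its largest fold change, 3.95, in the same comparison; the difference between it and the vessel genes was not tested. The signs of Pecam1 (0.22), Cdh5 (0.47), Tie1 (0.12), Vwf (0.39) and Plvap (0.43) turned with library size alone as the scaling, and that of Emcn (-0.05) with RLE size factors. With a library left out, signs in this comparison turned for Pecam1 (without CTS replicate 2), Tek (without PLA replicate 2 or CTS replicate 3), Tie1 (without CTS replicate 1) and Emcn (without PLA replicate 1 or CTS replicate 3). Library size alone moved the median of all genes to -0.43 in PLA against NC, -0.58 against GelMA and -0.51 against CTS, since the PLA libraries had TMM factors of 0.772 to 0.780.

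Among the groups without PLA, edgeR called 0 vessel genes in each comparison. In GelMA against NC, 4 vessel genes had an unadjusted p under 0.05 (28.1% of all genes did), DESeq2 called 4 and limma on log2 FPKM called 1. Kdr was at 1.27 (adjusted p = 0.0683) and Emcn at -1.5 (adjusted p = 0.0723), neither of them called. There, edgeR called 5.03% of all genes higher and 3.21% lower, and DESeq2 called 1258 higher and 1501 lower of 18049 genes. With limma on log2(FPKM + 1), 1028 were called higher and 201 lower of 13137 genes. Single calls appeared without CTS replicate 3 (Emcn, lower), NC replicate 1 (Tek, lower) and NC replicate 2 (Kdr, higher). Of 17854 to 17926 genes tested, those fits called 756 higher and 545 lower, 983 and 1075, and 1298 and 1200, in that order. In CTS against NC, 2 vessel genes had an unadjusted p under 0.05 (11.9% of all genes did), and DESeq2 and limma called 0. There, edgeR called 0.155% of all genes higher and 0.0222% lower, and DESeq2 called 369 higher and 213 lower of 18049 genes. In CTS against GelMA, 5 vessel genes had an unadjusted p under 0.05 (17.4% of all genes did), DESeq2 called 4 and limma called 0. Of all genes, edgeR called 0.416% higher and 1.32% lower in that comparison. DESeq2 called 581 of 18049 genes higher, which made up 48.5% of its calls, and its 4 vessel genes were among them. Without NC replicate 2, edgeR called 3 there, Tek, Emcn and Vwf, beside 671 higher and 604 lower of 17891 genes.

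**Figure D2:**
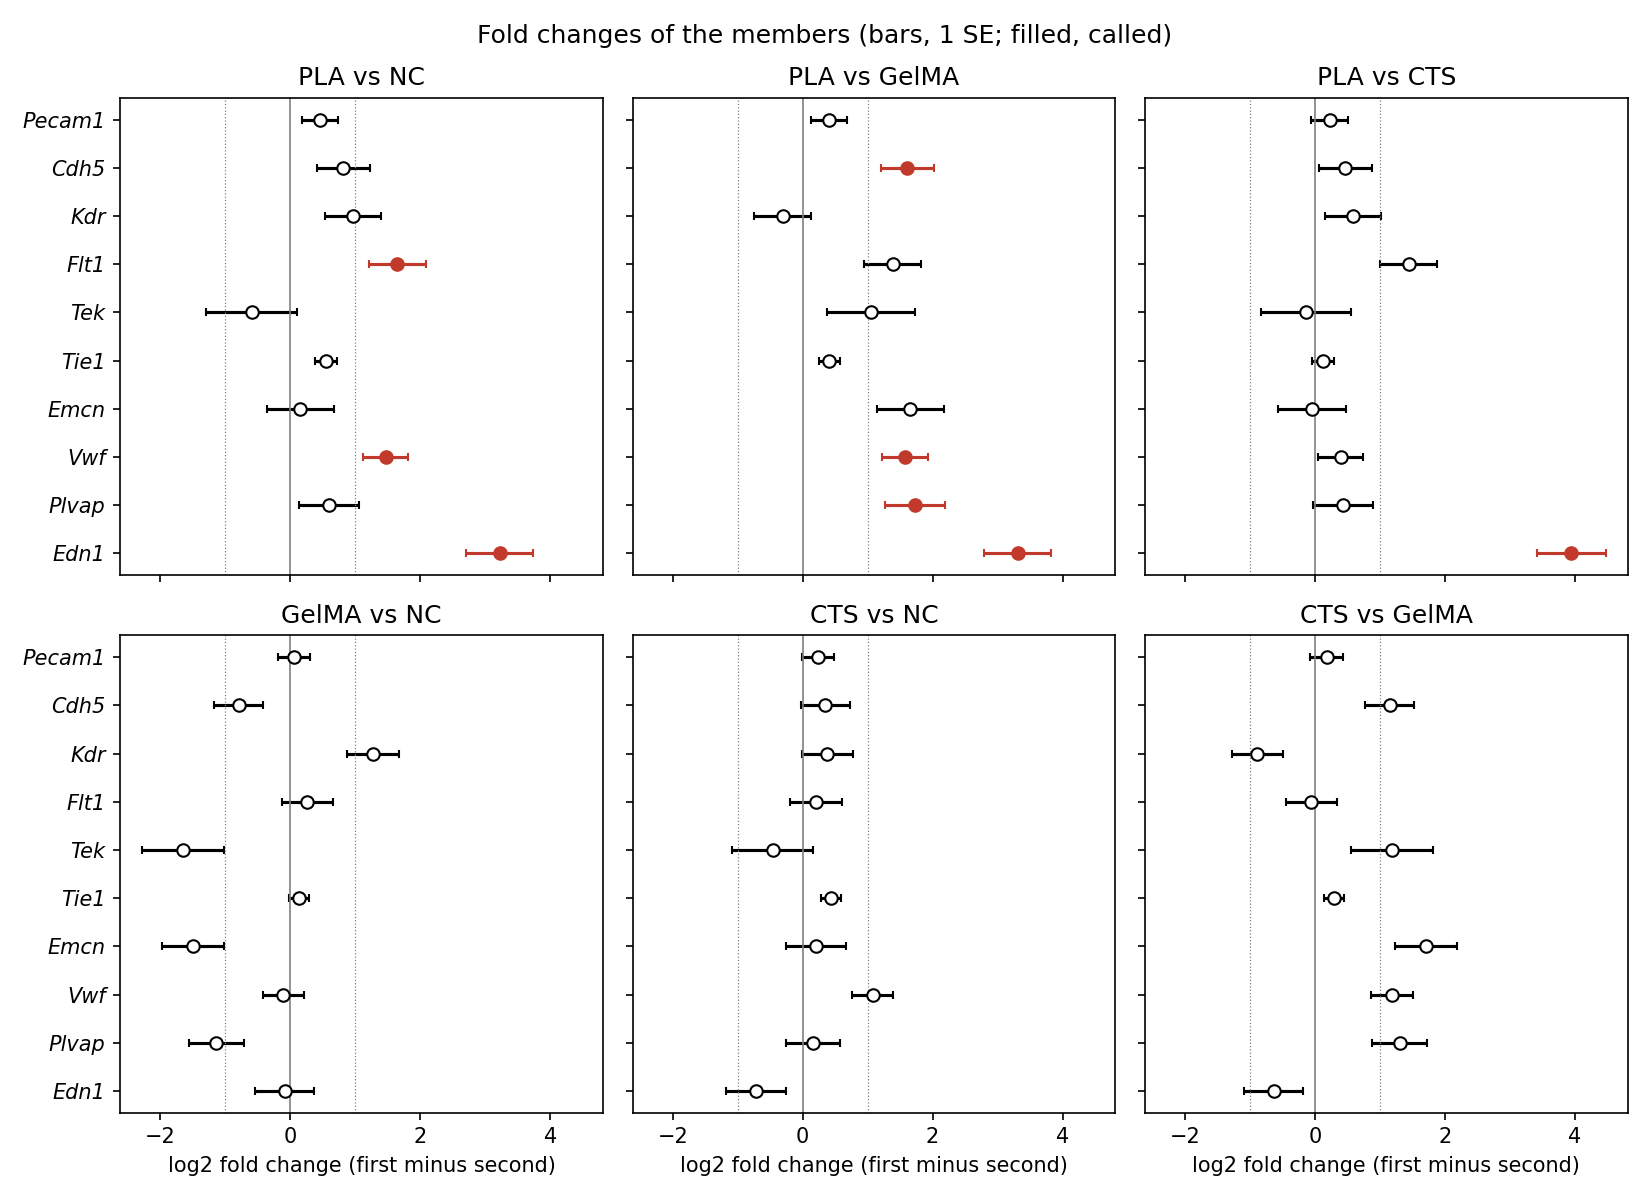
Log2 fold change of each member (points; bars, 1 SE; filled red, called) in the 6 comparisons, the first-named group minus the second, with dotted lines at -1 and 1. Edn1 lay at 3.22, 3.31 and 3.95 in the PLA comparisons and below 0 in the others, and no vessel gene went beyond 1.73.

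The level of Edn1 beside that of the vessel genes in the same library set PLA apart. Relative to the geometric mean of the 9 vessel genes in the same library, a ratio on which no scaling of libraries acts beyond a small prior count, Edn1 stood at 1.31 and 1.48 in PLA, 0.114, 0.133 and 0.116 in CTS, 0.245, 0.322 and 0.305 in GelMA, and 0.127, 0.260 and 0.314 in NC. The group means of this ratio were 1.39 ± 0.120 in PLA (SD, n = 2), 0.121 ± 0.0103 in CTS, 0.291 ± 0.0401 in GelMA and 0.234 ± 0.0961 in NC (SD, n = 3 each). The ratio was highest in PLA and lowest in CTS, and the CTS libraries lay below all 3 GelMA libraries. CTS replicate 3, with the highest vessel average of the series at 50.3 CPM, had 5.77 CPM of Edn1, and PLA replicate 2, with a vessel average of 40.8 CPM, had 60.2 CPM of Edn1.

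Per length, in FPKM as the authors give it, Edn1 was at 33.6 and 33.4 in PLA, 2.39, 2.23 and 4.46 in CTS, 3.41, 5.60 and 5.67 in GelMA, and 1.79, 5.20 and 6.21 in NC. By that level Edn1 was the highest of the 10 members in both PLA libraries, where Pecam1 came next at 20.5 and 16.1 FPKM. Elsewhere Edn1 ranked between 5 and 10 of the 10 members, and Pecam1 was highest except in NC replicate 2, where Tek was. The FPKM of Edn1 divided by that of each vessel gene in turn was higher in both PLA libraries than in any other library for 9 of the 9 genes, ratios that all share the Edn1 values. For Vwf, the ratio was 7.13 and 7.61 in PLA and 0.578 to 3.34 in the other libraries. Between CTS and GelMA, the vessel genes had a median of 1.15 (log2) and Edn1 was at -0.64.

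**Figure D3:**
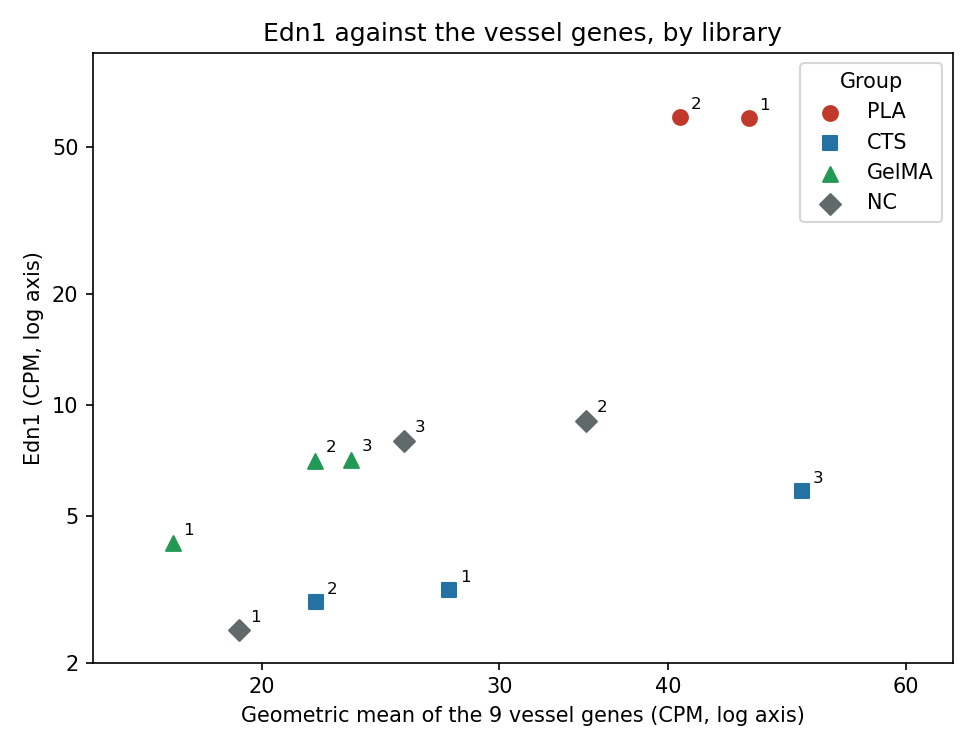
Edn1 level (vertical, CPM, log axis) against the geometric mean of the 9 vessel genes (horizontal, CPM, log axis), 1 point a library, numbered by replicate. Both PLA points lie at about 60 CPM of Edn1 over vessel averages of 45.9 and 40.8 CPM, and CTS replicate 3 lies at 5.77 CPM over 50.3 CPM.

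As a description, the Pearson correlation of Edn1 with the mean of the vessel genes (log2 CPM) was 0.67 over all 11 libraries and 0.41 over the 9 without PLA, with Spearman correlations of 0.60 and 0.47. The PLA libraries form a cluster of their own, and all points share the scaling of their library. Over 11 libraries Edn1 correlated most with Flt1 (0.85) and least with Tek (0.28), and over 9 libraries most with Kdr (0.64) and least with Tie1 (-0.07). The 36 pairs of vessel genes had a median correlation of 0.56 over 11 libraries and 0.38 over 9, with Kdr and Emcn lowest at -0.20 and -0.31. The 9 pairs of Edn1 with a vessel gene had medians of 0.52 and 0.26. Cdh5 was the vessel gene closest to their mean, at 0.95 and 0.92, and each vessel gene is part of that mean. Kdr was the furthest, at 0.31 and 0.21, below Edn1, and Pecam1 was at 0.65 and 0.52.

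None of the 5 genes most like Edn1 was among the 9 vessel genes. With 9 vessel genes among 12392 ranked, that says little. By correlation with Edn1 over the 11 libraries, Flt1 ranked highest of the 9, at 458, and Tek lowest, at 4252. Ranked by correlation with Edn1 over the 11 libraries among 12392 genes, the closest were Hilpda (0.98), a lipid droplet gene induced by hypoxia, Ier5 (0.98), an immediate early gene, Cfap94 (0.98), F3 (0.98), the tissue factor that starts clotting, and Bsg (0.98), a chaperone of lactate transporters. Hilpda was at 407 and 480 CPM in PLA, 23.8, 25.5 and 36.4 in CTS, 35.6, 45.4 and 53.1 in GelMA, and 13.7, 74.1 and 34.0 in NC. F3 was at 671 and 724 CPM in PLA, 36.3, 32.6 and 71.8 in CTS, 86.1, 106 and 111 in GelMA, and 50.6, 95.6 and 87.4 in NC. For both genes, as for Edn1, the PLA libraries lay above all others. The highest of so many correlations are large by selection. Over the 9 libraries without PLA the closest were others, Klhl18 (0.98), Speg (0.97), Acta2 (0.96), Garre1 (0.95) and Ncdn (0.94).

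The genes closest to the mean of the vessel genes over 11 libraries were Palmd (0.97), Myct1 (0.95), Mmrn2 (0.94), Dysf (0.94) and Lipe (0.93), and Myct1 and Mmrn2 are themselves known for expression in endothelium. Edn1 ranked at 341 of 12384 genes on that measure over 11 libraries and at 2280 over 9. Palmd was at 15 and 10.5 CPM in PLA, 5.49, 3.26 and 10.2 in CTS, 2.43, 3.19 and 3.91 in GelMA, and 3.52, 6.73 and 4.63 in NC. Palmd, Mmrn2, Dysf and Lipe were again among the closest 5 over the 9 libraries without PLA, joined by Adgrl4.

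Of the rest of the endothelin pathway, 7 of 8 listed genes were tested. Against NC, 1 was called higher and 1 lower in PLA, and against CTS 1 was called higher. With 8.32% of all genes called higher and 4.01% lower against NC, and 6.42% higher against CTS, single calls among 7 genes say little about the pathway. Against GelMA, edgeR, DESeq2 and limma called 0, and 1 had an unadjusted p under 0.05. Furin, a protease that cuts the endothelin precursor, was at 160 and 121 CPM in PLA, 62.0, 64.6 and 78.2 in CTS, 120, 121 and 128 in GelMA, and 56.8, 80.3 and 58.0 in NC. It was higher in PLA than in NC by 1.11 ± 0.197 (edgeR, adjusted p = 0.00448) and than in CTS by 1.04 ± 0.197 (adjusted p = 0.00724), and at 0.20 against GelMA (adjusted p = 0.583). The Furin call against NC was lost without PLA replicate 1 or NC replicate 3, and that against CTS without any 1 of 7 libraries, PLA replicate 1, CTS replicates 1 and 2, all GelMA replicates and NC replicate 3. Ece1, which releases the active peptide, was at 121 and 108 CPM in PLA, 80.0, 84.9 and 116 in CTS, 100, 94.2 and 107 in GelMA, and 67.6, 182 and 82.6 in NC, and was not called. The PLA libraries thus overlapped CTS and NC in Ece1 and lay above the 3 GelMA libraries.

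The receptors were not called either. Ednra, the receptor on mural cells, was at 46.4 and 29.3 CPM in PLA, 16, 11.8 and 29.3 in CTS, 26.1, 25.1 and 31.4 in GelMA, and 19.4, 13.7 and 27.3 in NC. Its log2 fold changes in PLA were 0.91 (NC), 0.46 (GelMA) and 0.99 (CTS) (edgeR, adjusted p between 0.124 and 0.509). Ednrb, the receptor that endothelial cells also carry, was at 78.9 and 60.7 CPM in PLA, 12.9, 7.52 and 29.5 in CTS, 14.3, 28.7 and 40.6 in GelMA, and 7.21, 59.3 and 11.6 in NC. Both PLA libraries were above all others, but the spread was wide, and the log2 fold changes of 1.43, 1.32 and 2.07 had adjusted p of 0.278, 0.355 and 0.131. Edn3, another endothelin, had 0 counts in both PLA libraries, 0, 12 and 6 in CTS, 4, 9 and 9 in GelMA, and 58, 24 and 11 in NC. Against a floor of 3 counts over both PLA libraries it was at least 20.9-fold lower in PLA than in NC (edgeR, adjusted p = 0.0417), a call lost without any 1 of 7 libraries, both of PLA, all of GelMA, CTS replicate 3 and NC replicate 1. NC replicate 1 held most of the NC counts, and with it left out of the NC mean, chosen after seeing the data, the bound was 11.9-fold.

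A further 36 of 37 listed genes known from endothelium were tested, a list chosen with earlier results of these data known. Against NC, 6 of the 36 were higher and 1 lower in PLA, with a median log2 fold change of 0.61, beside 8.32% higher, 4.01% lower and a median of -0.11 over all genes. Against GelMA, 8 were higher (median 1.26), beside 4.61% and -0.04 over all genes. Against CTS 1 was higher (median 0.38), beside 6.42% and -0.03 over all genes, so the share of the list called there was below that of all genes. The medians were thus close to those of the 9 vessel genes in each comparison. The counts of all genes called in PLA by edgeR also moved with the library left out. All 11 libraries gave 1502 higher and 724 lower over NC, 832 and 266 over GelMA, and 1158 and 637 over CTS, of 18049. Without NC replicate 2 these rose to 2045 and 1356, 1288 and 624, and 1588 and 1111, of 17891. Without GelMA replicate 1 they fell to 1241 and 649, 414 and 66, and 954 and 557, of 17907. The next counts are of the 36 listed genes. The total of 7 called against NC was 0 without PLA replicate 2, 1 without any of the GelMA libraries, 2 without PLA replicate 1, CTS replicate 1 or NC replicate 3, 3 without NC replicate 1 and 13 without NC replicate 2. The 8 called against GelMA became 1 without either PLA library or GelMA replicate 1, 2 without GelMA replicate 3, 3 without GelMA replicate 2, 5 without CTS replicate 1 and 14 without NC replicate 2. The 1 called against CTS became 0 without either PLA library or CTS replicates 1 or 2, 2 without GelMA replicate 1, 3 without NC replicate 1, 5 without CTS replicate 3 and 8 without NC replicate 2.

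Sele, an adhesion molecule that inflamed endothelium shows to leukocytes, was at 81.4 and 64.7 CPM in PLA, 24.7, 13.3 and 44.9 in CTS, 6.55, 7.38 and 6.48 in GelMA, and 20.7, 36.9 and 17.5 in NC. It was higher in PLA by 3.42 ± 0.462 against GelMA (edgeR, adjusted p = 0.00196), a call kept without each library in turn, and by 1.55 ± 0.442 against NC (adjusted p = 0.0403), which held only without CTS replicate 2, CTS replicate 3 or NC replicate 2. Selp, its relative in endothelium and platelets, was higher by 2.71 against GelMA (adjusted p = 0.0118), and Nos3, the nitric oxide synthase of endothelium, by 2.32 (adjusted p = 0.0170), both lost without either PLA library or GelMA replicate 1, and Nos3 also without GelMA replicate 3. Notch4, the endothelial Notch receptor, was at 15.3 and 15.6 CPM in PLA, 5.79, 4.17 and 8.98 in CTS, 4.87, 5.92 and 5.52 in GelMA, and 6.58, 6.78 and 7.43 in NC. It was called in all 3 PLA comparisons, and its rise of 1.29 against CTS (adjusted p = 0.0203) was the single call of the list there, lost without either PLA library or CTS replicates 1 or 2. Its highest level outside PLA was 8.98 CPM, in CTS replicate 3.

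S1pr1, a sphingosine phosphate receptor of endothelium and lymphocytes, was higher in PLA than in NC by 1.55 (edgeR, adjusted p = 0.00762; lost without PLA replicate 2), and Gja4, a connexin of arteries, by 1.98 (adjusted p = 0.0457; kept only without CTS replicate 3). Tal1, a transcription factor of endothelial and blood lineages, was lower in PLA, at -2.11 (adjusted p = 0.0358; lost without PLA replicate 2 or any GelMA library). S1pr1 was at 81.6 and 85.0 CPM in PLA, 63.7, 33.4 and 83.5 in CTS, 205, 156 and 154 in GelMA, and 28.1, 26.6 and 30.4 in NC, and was thus highest in GelMA.

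Vegfa, the main ligand of Kdr and Flt1 and a gene known to be induced by hypoxia, was at 1273 and 1453 CPM in PLA, 312, 286 and 395 in CTS, 359, 420 and 538 in GelMA, and 218, 862 and 265 in NC. Both PLA libraries were above all others, and Vegfa was called against CTS at 2.04 ± 0.494 (edgeR, adjusted p = 0.0230; lost without either PLA library or CTS replicates 1 or 2), with 1.60 against NC (adjusted p = 0.0522) and 1.63 against GelMA (adjusted p = 0.0664). It was the only one of 11 listed angiogenic ligands to be called in a PLA comparison. Nrp2, a co-receptor for Vegf, was at 353 and 340 CPM in PLA, 116, 88.3 and 119 in CTS, 150, 160 and 184 in GelMA, and 138, 86.7 and 113 in NC. It was higher in PLA by 1.62 against NC (adjusted p = 0.000766), 1.69 against CTS (adjusted p = 0.000815) and 1.08 against GelMA (adjusted p = 0.0132; lost without either PLA library or GelMA replicates 1 or 2). Among the 5 listed co-receptors of the Vegf and Tie systems, Nrp2 was the only one called in a PLA comparison. Of all genes, 8.32% were called higher against NC, 4.61% against GelMA and 6.42% against CTS. Single calls among 11 and 5 genes thus say little about either list.

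Mural cells wrap the vessels and carry the receptor on which endothelin acts. Of 12 mural genes, 4 were called higher when PLA was set against NC (median 1.08), 2 when it was set against GelMA (1.21) and 2 when it was set against CTS (1.51). Over all genes, 8.32% were called higher against NC (median -0.11), 4.61% against GelMA (-0.04) and 6.42% against CTS (-0.03). Their summed level was 929 to 1340 CPM in PLA, 323 to 633 in CTS, 468 to 610 in GelMA and 213 to 1072 in NC, so PLA overlapped NC on this sum. Mcam, an adhesion molecule of pericytes and endothelium, was at 135 and 84.5 CPM in PLA, 24.6, 15.6 and 43.5 in CTS, 21.1, 30.1 and 35 in GelMA, and 8.40, 26.5 and 18.7 in NC, and was called in all 3 comparisons (2.62 over NC, 1.93 over GelMA, 1.97 over CTS). Acta2, smooth muscle actin, was at 107 and 90.6 CPM in PLA, 25.6, 26.3 and 54.6 in CTS, 39.0, 51.2 and 53.6 in GelMA, and 24.6, 62.3 and 81.2 in NC, and was not called. Without PLA replicate 1, edgeR called 0 mural genes in each of the 3 comparisons, and without PLA replicate 2 it called 2 over NC. Over all genes, leaving out NC replicate 2 gave 2045 higher and 1356 lower of 17891 over NC, and 1588 and 1111 over CTS. With all 11 libraries these were 1502 and 724, and 1158 and 637, of 18049. Over NC the count of mural genes was 7 without NC replicate 2. Over GelMA it was 0 without PLA replicate 2 or any GelMA library and 1 without CTS replicate 1 or NC replicate 3. Over CTS it was 0 without PLA replicate 2 or CTS replicates 1 or 2, 1 without any GelMA library, 4 without CTS replicate 3 and 7 without NC replicates 1 or 2. The Mcam call against NC was lost only without PLA replicate 1. Its call against GelMA was lost without either PLA library, any GelMA library, CTS replicate 1 or NC replicate 3. That against CTS was lost without either PLA library or CTS replicates 1 or 2. The part of mural cells in the Edn1 result was not tested.

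Other cell types that could hold these transcripts were also present. The 10 myeloid genes summed to 5687 to 6275 CPM in PLA, 11420 to 14236 in CTS, 6750 to 10069 in GelMA and 3011 to 12552 in NC. Lyz2 alone took 3079 to 3711 CPM of this sum in PLA, 9389 to 12098 in CTS, 3919 to 7268 in GelMA and 2306 to 10182 in NC. The other 9 genes summed to 2564 to 2608 CPM in PLA, 2030 to 2158 in CTS, 2801 to 2850 in GelMA and 705 to 2370 in NC, so without Lyz2, a split made after seeing the data, PLA lay above CTS and NC and below GelMA. Of the 10, edgeR called 4 higher in PLA than in NC, 2 higher than in CTS and 2 lower than in GelMA. The matching shares of all genes were 8.32%, 6.42% and 1.47%. Adgre1 (F4/80) was higher in PLA than in NC by 2.80 (edgeR, adjusted p = 5.75e-05) and than in CTS by 1.97 (adjusted p = 0.000433), and lower than in GelMA, at -1.59 (adjusted p = 0.00306; lost without PLA replicate 1). Of the platelet markers, 5 of 8 passed the filter, and the list summed to 198 to 240.0 CPM in PLA, 97.4 to 115 in CTS, 96.7 to 132 in GelMA and 33.6 to 143 in NC. Most of that sum was Gp6, at 224 and 180.3 CPM in PLA and 25.9 to 131 in the other libraries. Itga2b was at 0.746 and 1.12 CPM in PLA, 1.38 to 2.81 in CTS, 0.781 to 1.73 in GelMA and 1.49 to 6.07 in NC, and its lowest value was thus in PLA. Gp1ba was at 0 CPM in both PLA libraries. Pf4 was at 15 and 16.3 CPM in PLA, 3.90 to 5.05 in CTS, 14.3 to 24.0 in GelMA and 2.53 to 5.69 in NC, and was called higher in PLA than in NC (1.82) and in CTS (1.75; lost without either PLA library). Prox1, which defines lymphatic endothelium, was at 0 to 0.587 CPM in all libraries. The 6 lymphatic genes summed to 12.4 to 15.9 CPM in PLA, 13.1 to 19.6 in CTS, 18.5 to 29.1 in GelMA and 10.7 to 18 in NC, and PLA lay below GelMA and overlapped CTS and NC. Of the epithelial genes, 4 of 6 were tested, and they summed to 21.8 to 38.2 CPM in PLA, 14.5 to 20.9 in CTS, 8.98 to 20.4 in GelMA and 6.78 to 18.7 in NC, so PLA was the highest. Most of that sum in PLA was Cdh1, at 37.3 and 19.5 CPM, against 2.89 to 18.8 in the other libraries, and it was called higher in PLA than in NC (1.96; edgeR, adjusted p = 0.0385), a call lost without any 1 of 7 libraries, both of PLA, all of CTS, GelMA replicate 2 and NC replicate 3. Krt8 went the other way, at 0.373 and 0.988 CPM in PLA and 7.09, 2.44 and 8.38 in NC. It was called lower in PLA than in NC (-3.13, edgeR), and of the libraries left out, only PLA replicate 1 cost the call. Of the 4 tested, 1 was thus called higher and 1 lower against NC, beside 8.32% and 4.01% of all genes. Epcam was at 0 to 1.5 CPM in all libraries. The 10 fibroblast and bone genes summed to 24944 to 38067 CPM in PLA, 22832 to 36971 in CTS, 25011 to 26034 in GelMA and 9247 to 229018 in NC, where NC replicate 2 gave the highest sum. The part of these cells in the Edn1 and vessel results was not tested.

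**Figure D4:**
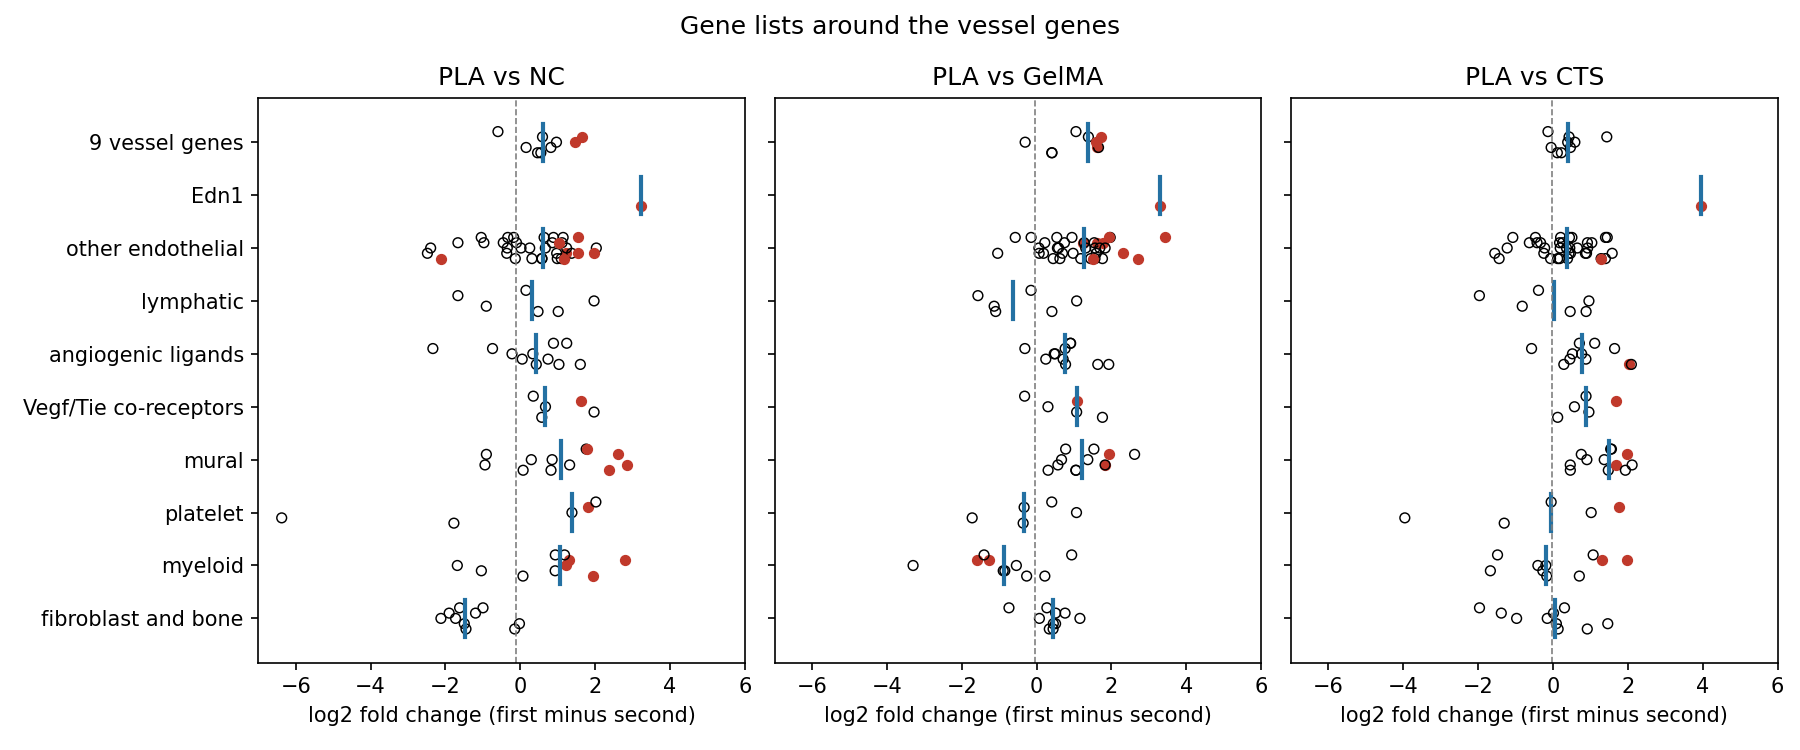
Log2 fold change in PLA against NC, GelMA and CTS (first-named group minus second) for the genes of each list (points; filled red, called; blue bar, list median; dashed line, median of all genes). The vessel genes had medians of 0.59, 1.38 and 0.39, and Edn1 lay at 3.22, 3.31 and 3.95, to the right of every vessel gene.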

How the data were processed

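RNA was sequenced from Cd45- cells of 11 libraries (2 PLA, 3 CTS, 3 GelMA, 3 NC), grouped by the labels. The authors deposited gene counts, and FPKM values that they made from them. The submitters' processing notes name fastp, HISAT2, HTSeq and DESeq and the build mRatBN7.2, without versions. Whether counting used strand is not given in the sources used here. In all 205408 values above 0, the deposited FPKM matched count over length and library total within a tolerance of 0.001.

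Counts were tested with edgeR 4.0.16 in R 4.3.3 (quasi-likelihood, robust, TMM, filterByExpr with a minimum count of 10, all 4 groups in a single fit, no covariate), with Benjamini-Hochberg adjustment over 18049 genes. The standard error is the log2 fold change over the square root of F. Correlations used log2 CPM with a prior count of 2. A self-test on simulated counts was run first. Alternatives were DESeq2 1.42.0, scaling by RLE or by library size alone, all genes unfiltered, edgeR on 2 groups, limma 3.58.1 on log2(FPKM + 1) or log2(FPKM + 0.1) with the fold changes on that scale, a replicate block, no fold threshold, an adjusted p under 0.01, and each library left out. Running these for the wider gene lists was chosen after seeing the data. Figures used Python 3.11.15 and matplotlib 3.10.9.

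The members and lists were chosen with earlier results of these data known. Named genes were all members, up to 3 called genes per list, direction and PLA comparison, defining markers of other cell types, and the 5 genes most like Edn1 or the vessel mean. Ece1, Ednra, Ednrb, Gp6 and Gp1ba, and Notch4 and Adgre1 in further comparisons, were added after their values were seen. Total counts were 22509898 to 31290849 per library, and precision is limited by the number of libraries, 2 in PLA.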

Additional observations from a re-analysis of the deposited data

How the results depend on the processing

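The 3 Edn1 calls in PLA kept their direction and stayed past the threshold in all 10 alternatives and with each library left out, at 2.83 to 3.54 against NC, 3.08 to 3.41 against GelMA and 3.72 to 4.29 against CTS. Without PLA, Edn1 in GelMA against NC turned to 0.15 with library size alone, 0.21 and 0.29 with limma at pseudocounts of 1 and 0.1 and 0.21 without a filter, and ran between -0.48 and 0.23 with a library left out. The count of vessel genes called against NC (2) was 1 with library size alone, edgeR on 2 groups or limma at 0.1, and 0 with limma at 1, with or without a filter, or at an adjusted p under 0.01. Against GelMA (3) it was 1 with library size alone or limma at 0.1, 5 with DESeq2, 6 with edgeR on 2 groups, and 0 with limma at 1, with or without a filter, or at an adjusted p under 0.01. Against CTS (0) it was 1 with RLE, DESeq2 or the replicate block. In GelMA against NC (0) it was 1 with library size alone or any limma fit and 4 with DESeq2, and in CTS against GelMA (0) it was 4 with DESeq2 and 2 with edgeR on 2 groups. In every comparison DESeq2 also called more of all genes than edgeR did, in both directions. For any difference among the 4 groups, the share of all genes that passed was counted only for edgeR on all 11 libraries (18.8%). It was not counted for the other settings. The members differing among the 4 groups (2) were 8 with DESeq2 and 1 with limma without a filter or at an adjusted p under 0.01. With a library left out these counts ran from 0 to 3, 0 to 5, 0 to 1, 0 to 1, 0 to 3 and 1 to 4, in the order given here, and stayed at 0 in CTS against NC.

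Single vessel genes changed sign only where they were not called. With library size alone, limma at 1 (with or without a filter) and limma at 0.1, the values were -0.13, -0.12 and -0.12 for Pecam1 and -0.13, -0.11 and -0.12 for Tie1 against GelMA, -0.25, -0.20 and -0.21 for Pecam1 and -0.36, -0.31 and -0.34 for Tie1 against CTS, and -0.15, -0.16 and -0.19 for Emcn against NC. Library size alone also turned Cdh5 (-0.0102), Vwf (-0.0829) and Plvap (-0.0443) against CTS. Emcn against CTS was 0.00454 with RLE, 0.00457 with DESeq2 and 0.23 with the block, and Tek 0.00774 with the block. With a library left out, the ranges were -0.016 to 0.48 for Pecam1, -0.40 to 0.090 for Tek (0.090 without PLA replicate 2 or CTS replicate 3), -0.022 to 0.21 for Tie1 and -0.44 to 0.50 for Emcn against CTS, and -1.03 to 0.78 for Tek and -0.24 to 0.46 for Emcn against NC. The cause was not tested. Of 15 pairs of same-numbered libraries of different groups, 1 had a correlation of deviations over 0.1, as had 2 of 30 other pairs. Deviations from the mean of 2 or 3 libraries are tied to each other, so this could not decide whether the numbers pair libraries. The block left the Edn1 calls and the counts against NC and GelMA as they were.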
